A study of Mus musculus with 2 samples.

Results

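The 8 genes of the nuclear factor I (NFI) and early B cell factor (EBF) families were examined for DLX2 peaks, namely *Nfia*, *Nfib*, *Nfic*, *Nfix*, *Ebf1*, *Ebf2*, *Ebf3* and *Ebf4*. They are 8 of 21761 protein-coding genes with usable coordinates on chromosomes 1 to 19, X and Y, and were taken by name as the full set of each family. A peak was assigned to a gene when it lay inside the RefSeq extent of the gene or within 100 kb of either end, in mm10, which is GRCm38. The data come from CUT&Tag, in which an antibody leads a transposase to its target so that nearby DNA is cut, tagged and sequenced. The 2 libraries, here replicate 1 and replicate 2, were made from maxillary process cells of wildtype C57BL/6 embryos at E12.5 with an antibody to DLX2, a homeodomain transcription factor of the developing face and forebrain. Both libraries are labelled wildtype, no control library was used here, and how many embryos went into each is not given in the sources used here. Replicate 1 held 28061 peaks and replicate 2 held 62093, or 2.21 times as many. These are the lists as deposited, which are longer than the peak sets the study describes and were not cut further, so neither they nor the shared regions drawn from them are the study's own peak sets. In the windows of the 8 genes lay 68 peaks of replicate 1 and 141 of replicate 2. Where peaks of both replicates overlapped by 1 bp or more, the overlap itself was taken as a shared region, and the 8 windows held 24 of the 10921 in the series. The lists hold no expression values, so the labelled tissue was not checked against marker genes, and which of its cell types carried a peak is not known.

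NFI proteins bind DNA as dimers at a palindrome whose arms read TTGGC, and act both as activators and as repressors. NFIA and NFIB drive the formation of glia, NFIB is also needed for lung maturation, NFIC for tooth root formation, and NFIX acts in neural stem cells and muscle. EBF proteins bind, also as dimers, a palindrome around CCCNNGGG. EBF1 commits progenitors to the B cell lineage, EBF2 acts in brown fat and in neurons, EBF3 in neurons and muscle, and EBF4 is the least studied of the family.

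Every one of the 8 genes had at least 1 shared region in its window, against 60.3% of all protein-coding genes. *Nfix* and *Ebf2* had 5 each and *Ebf3* had 4. These 3 genes were the members with 4 or more, a number reached by 9.41% of coding genes. *Nfib* and *Nfic* had 3 shared regions each, *Ebf4* had 2, and *Nfia* and *Ebf1* had 1 each. The windows of the members spanned 235.7 kb to 740.8 kb, against a median of 217 kb over coding genes, so counts were also divided by length. The 8 windows held 0.731 shared regions per 100 kb in all (95% exact Poisson interval 0.469 to 1.09, counting error only). Pooled over all coding genes, the density was 0.497 in the extents and 0.554 in the flanks, both inside that interval. The median over the 8 genes was 0.971 per 100 kb, and over all coding genes it was 0.441. Of the 8 genes, 6 lay above that median, with *Nfia* (0.135 per 100 kb) and *Ebf1* (0.169) below it. These last 2 are the longest genes of the set, at 540.8 kb and 390.0 kb. With peaks of a −log10 q of at least 5, or of a fold of at least 5, 3 of the 8 genes still held a shared region, namely *Nfib*, *Ebf1* and *Ebf2*, against 14.9% of coding genes with the limit on q and 28.6% with that on fold. Where each peak had to be covered by 50% or more, *Nfia* and *Ebf1* held none and the other 6 genes did, against 44.9% of coding genes. Without flanks, 7 of the 8 extents held a shared region and that of *Ebf1* did not, against 14.6% of coding genes. All 8 windows are longer than the median of coding genes, which these shares do not take into account. That matters most for the share without flanks. The coding gene median of 217 kb includes 100 kb on each side, so a typical extent is shorter than those of the members, 35.7 kb to 540.8 kb. Per 100 kb of extent, the members held 0.714 shared regions, against 0.497 over all coding genes.

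Peaks were placed against promoters, taken as the 300 bases from 250 before to 50 after a listed RefSeq start on GRCm38.p6. The table used lists 10 promoters of 6 members, with none for *Nfib* and *Ebf2*. None of the 10 met a peak of replicate 1, of replicate 2 or a shared region, against 0.791%, 2.69% and 0.161% of all 32851 listed promoters. At such rates, 0 of 10 is near the background. The closest peak to any of these starts was one of replicate 2, 1.29 kb upstream of a *Nfix* start. The starts listed for *Nfix* do not include the 5′ end of its extent, which is its higher end, on the minus strand. A shared region lay 0.212 kb inside that end. Of 63 listed promoters of 50 neighbouring genes in the 8 windows, 1 (1.59%) was met by a peak of either replicate, that of *Dand5*, named here after its value was seen. It lay wholly under a replicate 2 peak at chr8:84822574-84823126, with a fold of 3.66 from 7 fragments, and replicate 1 had no peak there.

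A promoter each of *Nfia*, *Ebf1* and *Nfix* is shown because it holds the core TAATT that homeodomain proteins of the DLX type recognise, with no peak on it, and that of *Dand5* because it is the listed promoter under a peak. Each was taken from RefSeq, runs 5′ to 3′ on the strand of its gene, and capitals mark TAATT on either strand, where AATTA is the same match on the other strand. The *Nfia* promoter lies at chr4:97581693-97581992 on the plus strand and holds 2 matches, the *Ebf1* promoter at chr11:44617850-44618149 on the plus strand with 1, the *Nfix* promoter at chr8:84780033-84780332 on the minus strand with 2 that overlap in TAATTA, and the *Dand5* promoter at chr8:84822774-84823073 on the minus strand with 0. Further promoters are listed for *Ebf1* and *Nfix*. That of *Nfix* at chr8:84773361-84773660 also holds 2 matches and is not shown, and the others hold 0.
*Nfia*: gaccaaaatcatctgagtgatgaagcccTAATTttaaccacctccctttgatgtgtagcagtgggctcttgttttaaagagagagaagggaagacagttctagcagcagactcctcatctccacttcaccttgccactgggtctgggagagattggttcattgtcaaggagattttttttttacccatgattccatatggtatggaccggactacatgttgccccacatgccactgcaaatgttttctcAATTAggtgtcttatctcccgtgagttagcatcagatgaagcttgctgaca
*Ebf1*: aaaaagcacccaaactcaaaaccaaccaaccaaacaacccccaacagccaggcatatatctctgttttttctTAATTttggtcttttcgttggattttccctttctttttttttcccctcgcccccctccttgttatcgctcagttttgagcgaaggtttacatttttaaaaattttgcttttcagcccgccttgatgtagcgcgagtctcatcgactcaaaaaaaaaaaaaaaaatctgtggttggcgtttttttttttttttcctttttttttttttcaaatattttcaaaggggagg
*Nfix*: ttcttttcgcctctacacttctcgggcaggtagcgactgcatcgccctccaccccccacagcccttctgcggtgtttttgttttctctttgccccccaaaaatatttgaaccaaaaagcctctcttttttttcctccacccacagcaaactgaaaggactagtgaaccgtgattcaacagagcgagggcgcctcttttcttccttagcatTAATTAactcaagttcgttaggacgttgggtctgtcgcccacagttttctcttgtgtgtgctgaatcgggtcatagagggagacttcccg
*Dand5*: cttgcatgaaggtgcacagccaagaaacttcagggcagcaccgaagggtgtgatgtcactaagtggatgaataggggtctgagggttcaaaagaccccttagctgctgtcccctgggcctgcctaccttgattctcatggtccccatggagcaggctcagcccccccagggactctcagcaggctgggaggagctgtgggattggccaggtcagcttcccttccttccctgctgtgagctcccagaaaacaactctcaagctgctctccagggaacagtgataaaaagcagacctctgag

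The core TAATT occurred in 4 of the 10 member promoters and in 27.0% of all listed promoters. TTGGC, read on both strands with GCCAA as its reverse, occurred in 5 of the 10, at *Ebf1*, *Ebf3* and *Nfix*, and in 46.7% of all. CCCNNGGG, which reads the same on both strands, occurred in 1 of the 10, that of *Ebf3*, and in 13.7% of all. The promoters of *Ebf3* and *Ebf4* were rich in G and C, at 77.0% and 74.3%, and that of *Ebf1* shown above was poor in them, at 36.7%, against a median of 52.7% over all listed promoters. A match is a run of letters, not a binding site. The sequence under the 24 shared regions was not analysed here.

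The totals of the families lay close together. The 4 NFI windows held 33 peaks of replicate 1, 73 of replicate 2 and 12 shared regions in 1.69 Mb. The 4 EBF windows held 35 peaks of replicate 1, 68 of replicate 2 and 12 shared regions in 1.59 Mb. The variation lay within each family, as the following values show.

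The density of peaks ranged widely over the 8 genes. *Nfix* had 3.71 peaks per 100 kb in replicate 1 and 9.44 in replicate 2, at percentiles 94.5 and 98.1 of all coding genes. *Nfic* had 3.39 and 8.48, at percentiles 92.0 and 95.9. *Ebf3* had 3.95 and 6.68, at percentiles 96.1 and 86.1. These 3 genes lay well above the coding gene medians of 1.37 peaks per 100 kb in replicate 1 and 3.38 in replicate 2. *Ebf2* followed with 3.27 in replicate 1 and 5.03 in replicate 2. *Ebf4* had 1.09 in replicate 1, below the median, and 6.17 in replicate 2, above it. Its 3 peaks of replicate 1 stood against 17 of replicate 2, which is 5.67 times as many, whereas for the other 7 genes the factor was 1.5 to 2.55. *Nfia* had 1.35 and 2.02 peaks per 100 kb, *Nfib* 0.960 and 2.40, and *Ebf1* 1.02 and 1.53. Those 3 genes were below the median in both replicates, *Nfia* by little in replicate 1.

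To compare the genes across libraries of unequal length, each density was divided by the coding gene median of its own replicate. The relative density was 2.75 ± 0.0665 (SD, n = 2) for *Nfix*, 2.49 ± 0.0285 (SD, n = 2) for *Nfic*, 2.43 ± 0.635 (SD, n = 2) for *Ebf3* and 1.93 ± 0.631 (SD, n = 2) for *Ebf2*. It was 1.31 ± 0.731 (SD, n = 2) for *Ebf4*, 0.791 ± 0.271 (SD, n = 2) for *Nfia*, 0.705 ± 0.00807 (SD, n = 2) for *Nfib* and 0.596 ± 0.204 (SD, n = 2) for *Ebf1*. *Nfix* and *Nfic* had the highest means and little spread between the replicates, although *Ebf3* came first in replicate 1, while the values of *Ebf2*, *Ebf3* and *Ebf4* moved widely between them. Within a replicate, the counting intervals of neighbours in the order overlapped in each case. In replicate 2, 11 of the 28 pairs of genes had intervals apart, each of them setting *Nfix*, *Nfic*, *Ebf3*, *Ebf4* or *Ebf2* above *Nfia*, *Nfib* or *Ebf1*. In replicate 1, and for the shared regions, 0 of the 28 pairs did.

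**Figure D1:**
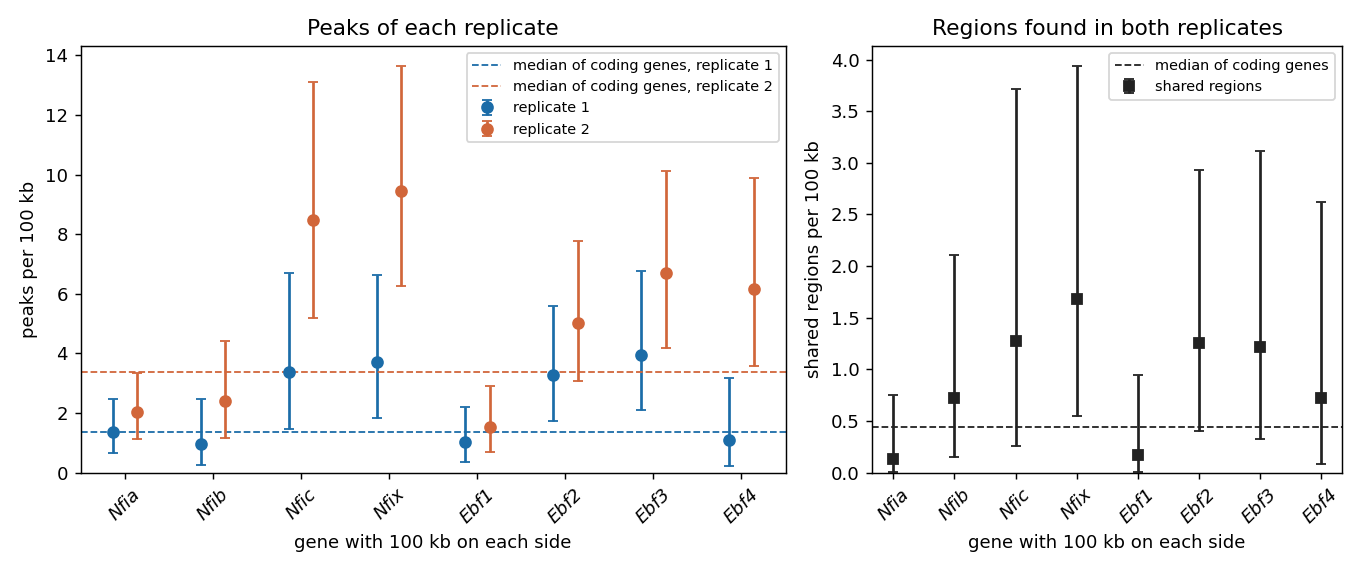
Peaks per 100 kb in each replicate (left) and shared regions per 100 kb (right) for each gene with 100 kb on each side. Bars are 95% exact Poisson intervals of the counts and dashed lines the medians over 21761 protein-coding genes. *Nfix*, *Nfic*, *Ebf2* and *Ebf3* lie above each median, and *Nfia*, *Nfib* and *Ebf1* below those of the replicates.

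The windows also differed in how many other genes they held, and *Nfic* and *Nfix* had the most. The window of *Nfic* held 16 other coding genes, that of *Nfix* 12 and that of *Ebf4* 9. The windows of *Nfia*, *Nfib* and *Ebf2* held 0, that of *Ebf1* held 1 and that of *Ebf3* held 2. Over all coding genes, windows with 10 or more coding genes had medians of 1.90 peaks per 100 kb in replicate 1 and 5.21 in replicate 2. Windows with 3 or fewer had medians of 0.858 and 1.90. *Ebf2* and *Ebf3*, in windows of the second kind, were thus far above the median of such windows in both replicates. *Nfia* and *Nfib* were above it by less in both, and *Ebf1* was above it in replicate 1 and below it in replicate 2.

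The local background of the libraries differed between the genes too. It was recovered for each peak from the deposited fold and p and is given here as a multiple of the lowest background in its library. With no control library used here, it is not independent of the peaks. A multiple of 1.0 is that lowest value itself. The median over the peaks of *Nfic* was 2.29 times the lowest in replicate 1 and 2.38 times in replicate 2. For *Nfix* it was 2.13 and 1.76 times. For *Nfia* it was 1.01 and 1.0, for *Nfib* 1.17 and 1.0, for *Ebf1* 1.08 and 1.09, for *Ebf2* 1.24 and 1.16, for *Ebf3* 1.44 and 1.28, and for *Ebf4* 1.37 and 1.42. The medians over all peaks were 1.25 and 1.17 times. *Nfic* and *Nfix*, with the densest peaks in replicate 2, had the highest background there. In replicate 1 they again had the highest background, but *Ebf3* had the densest peaks at 1.44 times the lowest, and *Ebf2* was nearly as dense as *Nfic* at 1.24 times. The part of background or of gene density in the number of peaks was not tested.

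**Figure D2:**
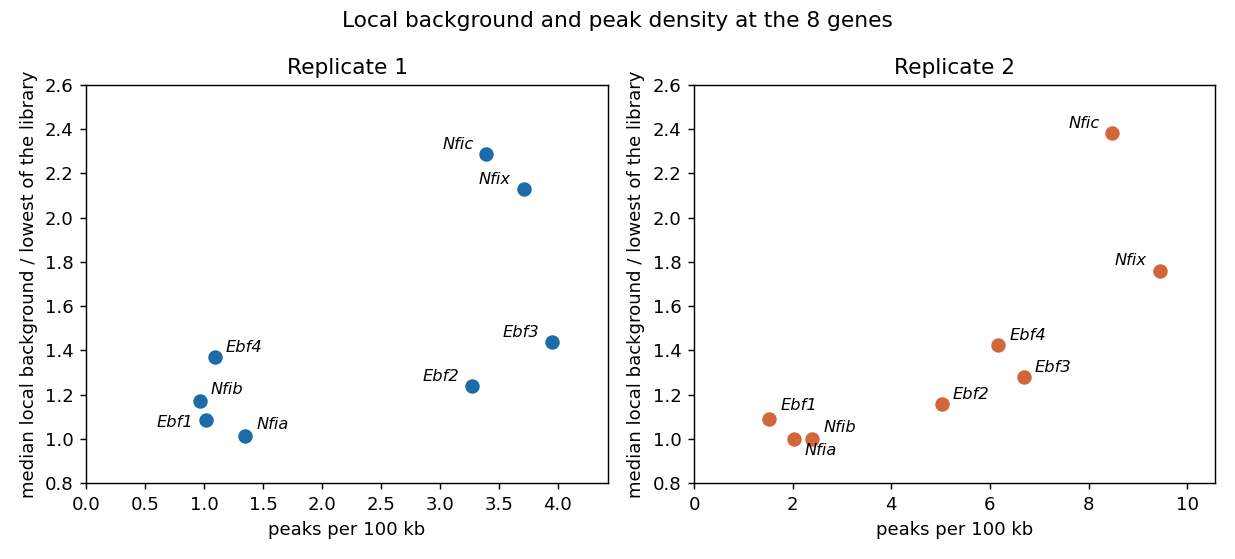
Median local background at the peaks of each gene, as a multiple of the lowest background in the library, against peaks per 100 kb, for replicate 1 (left) and replicate 2 (right). *Nfic* and *Nfix* have both many peaks and a background of 1.76 to 2.38 times the lowest, whereas *Nfia*, *Nfib* and *Ebf1* lie near 1.

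Along the genes, 12 of the 24 shared regions overlapped the extent of a member and 12 lay in a flank. The extents made up 1.68 Mb of the 3.28 Mb examined. The density was 0.714 shared regions per 100 kb in the extents and 0.750 in the flanks, against 0.497 and 0.554 over all coding genes, whose windows overlap each other. The NFI genes held 8 of their 12 shared regions inside the extents (0.899 per 100 kb, against 0.50 in the flanks). The EBF genes held 4 of 12 inside (0.505 per 100 kb, against 1.0 in the flanks). These counts are small and the difference between the families was not tested. A member was the coding gene that held the region, or the nearest one, for 18 of the 24. Within 2 kb of an end of a member lay 1 region, at the 5′ end of *Nfix*. The annotation used here gives no exons, so introns and exons were not told apart, and the direction of transcription of *Nfib* and *Ebf2* is not in the table used.

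**Figure D3:**
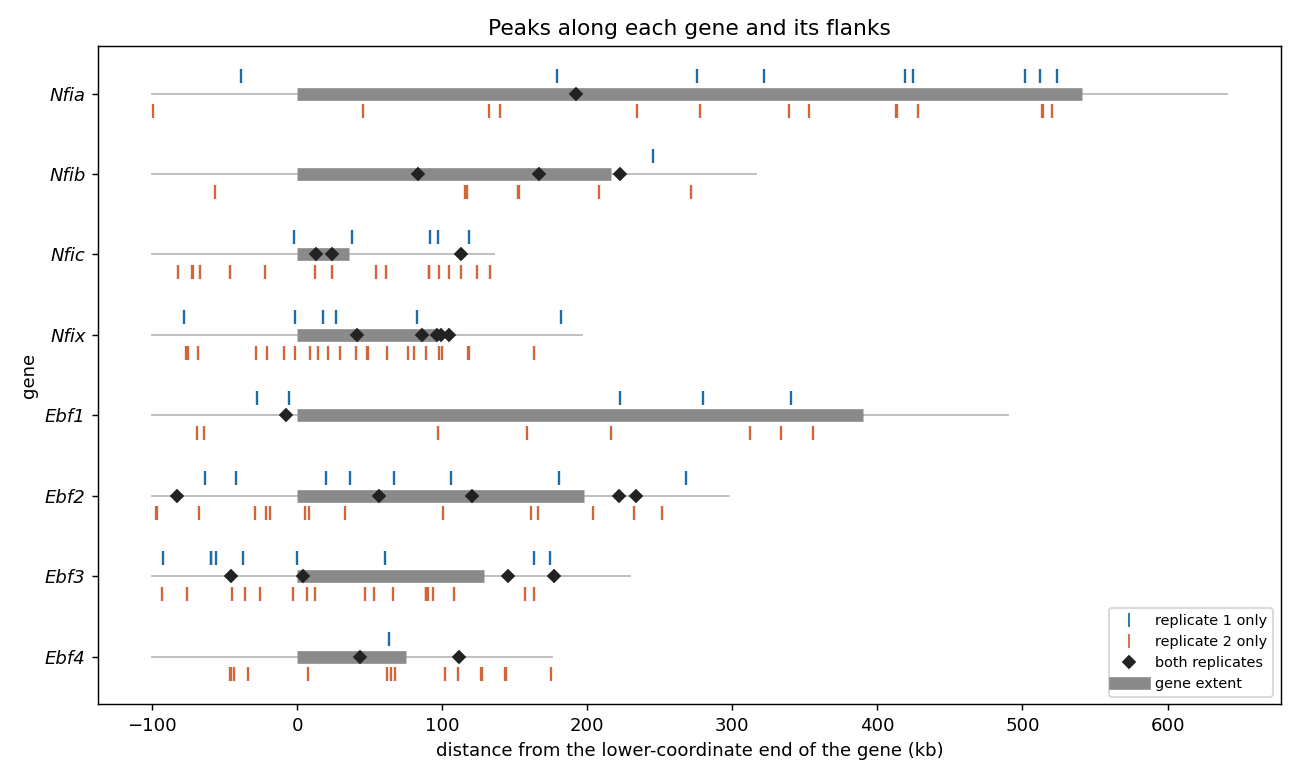
Positions of peaks along each gene (thick bar) and its 100 kb flanks (thin line), as distance in kb from the end with the lower coordinate. Upper and lower ticks are peaks of replicate 1 and replicate 2 alone and diamonds the 24 shared regions; 4 diamonds of *Nfix* sit close to its higher end, and *Nfia* and *Ebf1* have 1 each.

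Among the NFI genes, *Nfia* (chr4:97578066-98118876) had 10 peaks in replicate 1 and 15 in replicate 2. Its shared region at chr4:97769957-97770147 lay inside the gene, 188 kb downstream of the listed start. It had a fold of 6.84 in replicate 1, from 9 fragments at the summit, and of 4.28 in replicate 2, from 8 fragments. *Nfib* (chr4:82290173-82506751) had the fewest peaks of the family, with 4 in replicate 1 and 10 in replicate 2, yet 3 of the 4 recurred. The region at chr4:82512866-82513193, 6.12 kb beyond the higher end of the gene, had a fold of 8.65 in replicate 1 (11 fragments) and 8.09 in replicate 2 (16 fragments). The region at chr4:82457037-82457199, inside the gene, had folds of 7.64 (11 fragments) and 7.39 (17 fragments). A weaker one at chr4:82373671-82373876, also inside, had folds of 5.04 and 4.49. Only *Nfib* had 2 shared regions with a fold of 7 or more in both libraries.

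*Nfic* (chr10:81396191-81431919), the shortest gene of the set, had 8 peaks in replicate 1 and 20 in replicate 2. Its shared region at chr10:81408872-81409010 had folds of 4.60 and 4.14, and that at chr10:81419867-81420049 had folds of 4.65 and 2.89. The second was the weakest of the 24 by its lower fold, at percentile 0.188 of all shared regions, with 9 and 11 fragments over a background of 1.15 fragments in replicate 1 and 3.15 in replicate 2. The third region in the window, at chr10:81508644-81508948, lay 76.7 kb away inside *Gna15*, which encodes a G protein subunit, with folds of 3.86 and 4.98. *Nfix* (chr8:84704712-84801238) had 11 peaks in replicate 1 and 28 in replicate 2. Of its 5 shared regions, 4 lay within 20 kb of its higher end, in a span of 18.8 kb, a distance picked after the positions were seen. In order of position, they had folds of 4.4 and 3.69, 4.39 and 3.39, 4.97 and 3.36, and 3.94 and 4.20 in replicate 1 and replicate 2. The second of these, at chr8:84800990-84801026, was the region at the gene end, 0.212 kb inside it. This is the 5′ end, as *Nfix* lies on the minus strand. The last, at chr8:84809203-84809331, lay nearer to *Dand5*, a secreted inhibitor of Nodal signalling. The fifth, at chr8:84746006-84746223, lay inside *Nfix* with folds of 4.69 and 3.96. None of the 8 shared regions in the windows of *Nfic* and *Nfix* reached a fold of 5 in either replicate.

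Among the EBF genes, *Ebf1* (chr11:44618100-45008096) had 6 peaks in replicate 1 and 9 in replicate 2. Its shared region at chr11:44610059-44610226 lay 7.87 kb upstream of the listed start, with a fold of 7.93 in replicate 1 (10 fragments) and 7.01 in replicate 2 (17 fragments). The body of *Ebf1* held 3 peaks of replicate 1 and 6 of replicate 2, and none of them recurred. *Ebf2* (chr14:67233292-67430952) had 13 peaks in replicate 1 and 20 in replicate 2. It held the strongest shared region of the whole set, at chr14:67289529-67289812 inside the gene, where the fold was 8.23 in replicate 1 (12 fragments) and 10.04 in replicate 2 (23 fragments). The summits of the replicates lay 10 bp apart there. The other region inside *Ebf2*, at chr14:67353458-67353719, was weak, with folds of 3.24 and 4.28. Beyond the higher end of the gene, regions at chr14:67455025-67455256 (folds of 5.52 and 5.24) and chr14:67466812-67467022 (5.05 and 4.91) lay 24.1 kb and 35.9 kb away. A region on the other side, at chr14:67150310-67150405, was 82.9 kb away, somewhat nearer to *Ppp2r2a*, which encodes a phosphatase subunit, and had unequal folds, of 3.36 in replicate 1 and 6.32 in replicate 2.

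*Ebf3* (chr7:137193671-137322805) had 13 peaks in replicate 1 and 22 in replicate 2. Of its 4 shared regions, 1 lay inside the gene, at chr7:137197768-137197891, 4.10 kb from its lower end and with folds of 4.38 and 4.24. Upstream of the gene, the region at chr7:137339085-137339282 had folds of 6.46 and 4.72 and that at chr7:137370566-137370632, nearer to *9430038I01Rik*, had folds of 5.58 and 3.41. Downstream, the region at chr7:137148001-137148029 lay nearer to *Mgmt*, a DNA repair gene, with folds of 4.56 and 3.78. *Ebf4* (chr2:130295126-130370482) had 2 shared regions. That inside the gene, at chr2:130338557-130338721, had folds of 4.66 and 5.04 and summits at the same base. That at chr2:130406961-130407003 lay inside *Tmem239*, 36.5 kb downstream, with folds of 3.92 and 4.61. The summits there were 270 bp apart, the largest distance among the 24.

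By fold, the 24 shared regions fell into a few strong and many weak ones. A fold of 7 or more in both replicates, a limit picked after the values were seen, was reached by 4 of the 24 (16.7%), the pair at *Nfib* and those at *Ebf1* and *Ebf2*. Of all shared regions 6.57% reached it, and since the limit lies in a gap of the members' own values, nothing is read from that difference. A fold of 5 or more in both was reached by 5 of the 24 (20.8%) and by 35.1% of all shared regions. The strong 4 lay at percentiles 93.5 to 97.7 of all shared regions by the lower of their folds. The median fold was 4.67 in replicate 1 and 4.39 in replicate 2, against 5.05 and 5.12 over all shared regions. The fold was higher in replicate 1 for 17 of the 24 regions, against 50.4% of all shared regions. Summits held a median of 7.5 fragments in replicate 1 (4 to 12) and 11.5 in replicate 2 (7 to 23). Over all shared regions the medians were close to these, at 7.0 and 12.0 fragments, so the lower median folds did not go with fewer fragments in replicate 1. At the *Ebf2* region of highest fold, the exact Poisson interval ran from 6.2 to 21.0 fragments in replicate 1 and from 14.6 to 34.5 in replicate 2, so that even the strongest fold is known only within a wide range. Differences from all shared regions were not tested.

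**Figure D4:**
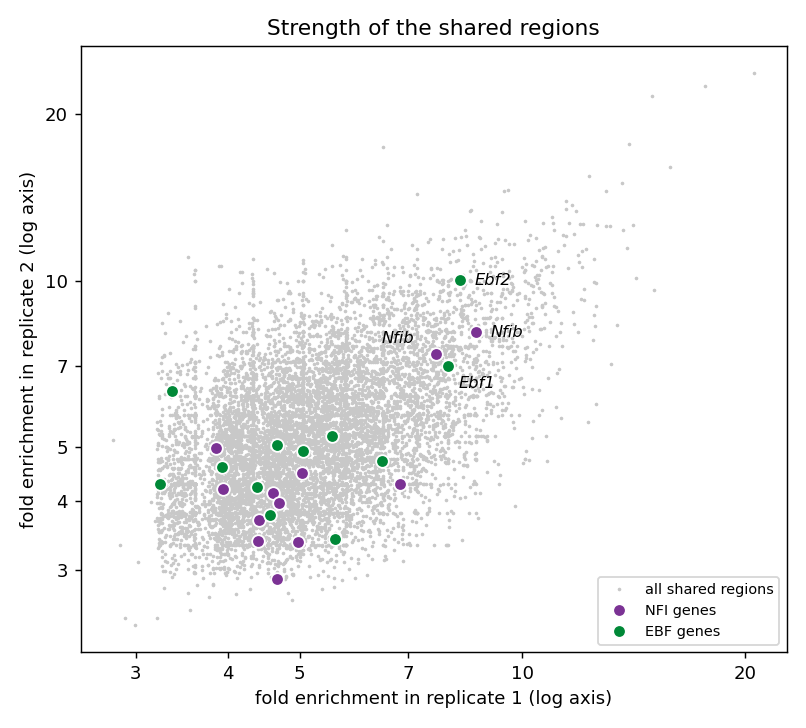
Fold enrichment of each shared region in replicate 1 (x, log axis) and replicate 2 (y, log axis), for the 12 NFI and 12 EBF regions (coloured) and all 10921 shared regions (grey). The 4 named points, at *Nfib*, *Ebf1* and *Ebf2*, have folds of 7 or more in both replicates, and most of the others lie below 5 in at least 1 of them.

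Most peaks at the 8 genes were found in 1 replicate alone. Of the 68 replicate 1 peaks, 24 (35.3%, 95% Wilson interval 25 to 47.2%) met a replicate 2 peak, against 38.9% of the whole list. Of the 141 replicate 2 peaks, 24 (17.0%, interval 11.7 to 24.1%) met a replicate 1 peak, against 17.2% of the whole list. Both shares were close to those of the whole lists. *Nfib* had the highest share, with 3 of 4 peaks of replicate 1 and 3 of 10 of replicate 2 met, and *Nfia* the lowest, with 1 of 10 and 1 of 15. The 44 replicate 1 peaks that were not met had a median fold of 4.45 from a median of 6 fragments, and the 117 of replicate 2 had a median fold of 3.91 from 9 fragments. Of those in replicate 1, the one of highest fold lay inside *Nfia* at chr4:98002372-98002511, with a fold of 6.49 from 8 fragments. That with the most fragments, 10, lay in the *Nfic* window at chr10:81433949-81434089, with a fold of 6.41. In replicate 2 the highest fold, 6.33 from 13 fragments, was in the *Ebf2* window at chr14:67165214-67165454. In replicate 2 the peak with the most fragments, 19, lay inside *Ebf3* at chr7:137282145-137282346 with a fold of 6.28, and the nearest replicate 1 peak was 27807 bp away. A site seen in 1 list alone cannot be told from one missed at this depth in the other.

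For context, 10 genes of the circuits in which NFI and EBF proteins act were examined by the same rule. They were *Zfp423* and *Zfp521*, zinc finger partners of EBF1, *Ski*, a corepressor, *Tcf3*, *Pax5* and *Foxo1*, which act with EBF1 in B cells, *Pparg*, *Cebpa* and *Prdm16*, regulators of fat cells, and *Sox9*, a regulator of cartilage and glia. Of the 10, 9 had a shared region in their window, against the 60.3% of all coding genes, and 7 had a density of shared regions above the coding gene median. Several of these windows are long as well, with 521.2 kb for *Prdm16* and 500.2 kb for *Zfp423*. *Prdm16* had the most, with 12 shared regions (2.30 per 100 kb, percentile 97.6) from 25 peaks of replicate 1 and 46 of replicate 2. *Tcf3* had 5 shared regions (2.23 per 100 kb, percentile 97.4), and both genes thus exceeded the 1.69 per 100 kb of *Nfix*. *Cebpa* and *Sox9* had 3 each, *Zfp423*, *Zfp521*, *Ski*, *Pax5* and *Foxo1* had 2 each, and *Pparg* had 0, with 2 peaks in replicate 1 and 11 in replicate 2.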

How the data were processed

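CUT&Tag peaks of 2 wildtype replicates were used. Per the labels, the submitters' processing notes name Trim Galore 0.4.5, Bowtie 1.1.2, MACS2 2.2.7 and the build mm10; the study's methods name bowtie2 and other versions, and the peak caller's settings are not given in the sources used here. The labels describe sonicated chromatin and the methods transposase tagging. The deposited score is the whole part of 10 times the −log10 q. The deposited fold is taken as a ratio of the summit's fragments to a background, with 1 added to each, and the deposited −log10 p and −log10 q are the peak caller's own. The lists, used without a further cut, reach down to a −log10 q of 1.0, and read totals are not given. Fragments and background were recovered from fold and p, on the assumption that fold is fragments plus 1 over background plus 1 and that p is a Poisson upper tail, and a whole number was found for 100% of peaks at a tolerance of 0.001. They are an inference. The lowest recovered background, 0.387 fragments in replicate 1 and 1.10 in replicate 2, recurs at peaks of several genes. There it is a value of the whole library, not of the surroundings of the peak. Gene extents were those of RefSeq for GRCm38.p6, without genes listed before position 3000000. A percentile is the share of the 21761 coding genes with a lower density, with ties counted in part.

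No test was run, since there is 1 group and no control. Intervals cover counting error only, and whether the replicates came from separate litters is not given. The members and lists were chosen with earlier results of these data known. All shared regions were named one by one, as there were at most 40. Overlap and recovery were tested on simulated peaks. The tools were scipy 1.17.1, pandas 2.3.3, numpy 2.4.6 and matplotlib 3.10.9 under Python 3.11.15.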

Additional observations from a re-analysis of the deposited data

How the results depend on the processing

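Of 39 alternatives, 19 left a count within 1.5 times its value or a share within its interval. A flank of 50 kb or 200 kb, summits within 150 bp and limiting regions to those nearest the member did so for the 24 shared regions. Limited to peaks with −log10 q of 5 or more they numbered 4, to peaks with a fold of 5 or more 5. They numbered 12 with no flank, 14 where 50% of each peak had to be covered, and 6 at a −log10 p of at least 7, a value added after seeing the data. With the other replicate left out, all peaks at the members, met or not, numbered 68 for replicate 1 and 141 for replicate 2. In the order of the first 3 settings and the last, replicate 1 peaks numbered 8, 23, 33 and 15, and replicate 2 peaks 14, 22, 69 and 32. The share of replicate 1 peaks met was 50% with the limit on q, 21.7% with that on fold and 20.6% with 50% covered. The share of replicate 2 peaks met was 28.6% with the limit on q and 9.93% with 50% covered. The smaller counts follow from fewer peaks, shorter windows or the stricter overlap. The cause of the other changes was not tested. No paired analysis was possible because there is 1 group. With 4 to 12 fragments at the summits of shared regions in replicate 1, weak sites missed by 1 library are below what these lists can show.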

Other observations

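Some peaks of the 2 replicates lay side by side without touching. Of the 44 replicate 1 peaks at the 8 genes that met no replicate 2 peak, 6 (13.6%) lay within 1 kb of one, against 12.1% of such peaks in the whole list. Of the 117 of replicate 2, 15 (12.8%) lay within 1 kb of a replicate 1 peak, against 5.23% in the whole list, a difference that was not tested. Several of these 15 lay beside a replicate 1 peak that another replicate 2 peak had met, and so beside a shared region. Those 258 bp and 78 bp from a replicate 1 peak inside *Nfic* are examples. Upstream of *Ebf3*, a replicate 1 peak at chr7:137356945-137357064 (fold of 4.50, 6 fragments) began 17 bp past the last base of a replicate 2 peak at chr7:137356732-137356928 (fold of 3.95, 8 fragments). In the *Nfic* window, a replicate 1 peak at chr10:81493510-81493647 (fold of 3.48) ended 45 bp before a replicate 2 peak at chr10:81493692-81493834 (fold of 2.87). At the lower end of *Nfix*, peaks at chr8:84703412-84703509 in replicate 1 (fold of 5.45) and chr8:84702901-84703087 in replicate 2 (fold of 3.63) lay 325 bp apart. *Nfic*, *Nfix*, *Ebf3* and *Ebf4* were the members with such pairs.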
